A study of Mus musculus with 2 samples.

Results

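Leukocyte integrins and the vascular adhesion molecules they meet were followed through single cells of mouse abdominal aortic aneurysm. The set holds 9 genes, taken by symbol from the 31253 features of the tables, and each symbol matched 1 feature: the integrin chains Itgam, Itgax, Itgal, Itgb2 and Itga4, the immunoglobulin-type ligands Icam1, Icam2 and Vcam1, and the selectin Selp. Aneurysm was induced with PPE in both groups. The control group was C57BL/6J (WT, 1 library) and the other group carried a global deletion of Gsdme (Gsdme-KO, 1 library), the gene of the pore-forming protein gasdermin E, so that the deletion was not limited to a cell type. The abdominal aorta was digested to single cells and captured on BD Rhapsody, a microwell platform that tags each RNA molecule with a unique molecular identifier (UMI). How many mice went into a library, their age and sex and the time after PPE are not stated in the labels, and neither library came from an aorta without PPE. With 1 library per group no test between genotypes was possible. Every interval below is a 95% interval for counting error alone, and a difference between the libraries cannot be told apart from a difference between animals or preparations.

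Integrins are receptors of an α and a β chain that bind matrix or the surface of another cell. Leukocytes carry a family of α chains (Itgam, Itgax, Itgal) that pair with the β2 chain Itgb2, and an α4 chain (Itga4) that pairs mainly with the β1 chain. Selectins such as P-selectin slow leukocytes on the vessel wall, and activated integrins then hold them there by binding ICAM-1, ICAM-2 or VCAM-1. ICAM-1 and VCAM-1 are induced by inflammatory cytokines, whereas ICAM-2 is carried by resting endothelium.

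Promoter sequence from RefSeq (GRCm38.p6, the 250 bases before the start of transcription) was at hand for Itgam, Itgax, Itga4, Icam1 and Selp. The members shown here differ in where they were read: Itgam and Itgax in myeloid cells, Icam1 in nearly every cluster, and Selp mostly in endothelium. Each is written 5′ to 3′ on the gene's plus strand, and capitals mark matches to 2 motifs described with their genes below.
Itgam, chr7:128062390-128062639, plus strand: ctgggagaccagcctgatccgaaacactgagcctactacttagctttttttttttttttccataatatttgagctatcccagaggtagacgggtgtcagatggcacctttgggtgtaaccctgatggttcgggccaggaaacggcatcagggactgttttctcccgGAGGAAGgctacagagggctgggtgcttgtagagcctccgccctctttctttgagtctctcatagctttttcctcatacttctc
Itgax, chr7:128129300-128129549, plus strand: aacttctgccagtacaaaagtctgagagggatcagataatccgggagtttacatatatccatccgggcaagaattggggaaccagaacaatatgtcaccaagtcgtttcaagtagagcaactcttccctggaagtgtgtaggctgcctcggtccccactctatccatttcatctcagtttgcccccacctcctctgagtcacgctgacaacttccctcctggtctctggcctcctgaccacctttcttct
Icam1, chr9:21015690-21015939, plus strand: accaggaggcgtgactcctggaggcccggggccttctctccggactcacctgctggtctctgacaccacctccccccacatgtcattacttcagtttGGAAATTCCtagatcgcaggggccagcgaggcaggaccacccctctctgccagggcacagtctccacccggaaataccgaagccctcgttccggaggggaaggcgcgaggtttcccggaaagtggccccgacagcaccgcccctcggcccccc
Selp, chr1:164115014-164115263, plus strand: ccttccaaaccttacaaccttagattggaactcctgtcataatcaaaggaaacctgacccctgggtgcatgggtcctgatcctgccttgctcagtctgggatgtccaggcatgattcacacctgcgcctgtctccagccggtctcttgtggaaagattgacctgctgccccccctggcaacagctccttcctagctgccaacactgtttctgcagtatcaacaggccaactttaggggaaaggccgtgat

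After filtering, 7619 WT and 8784 Gsdme-KO cells remained, with a median of 3835 and 4062 UMIs per cell and 2.81% and 3.55% mitochondrial UMIs. The libraries shared 73 cell barcodes, of which 65 were kept in both. Levels are CPM, the UMIs of a gene per 1000000 UMIs of the same cells. Gsdme itself gave 5.53 CPM (215 UMIs) in WT and 2.55 CPM (133 UMIs) in Gsdme-KO, giving a ratio of 0.461 (0.368 to 0.575). Which part was deleted is not stated, so UMIs from outside it would not check the label. Cells were clustered without the 9 genes and without the other adhesion genes listed further on, so that none of their levels defined a cluster. Of 27 clusters, 21 held at least 50 cells in each library and were compared by number, 7 of them unnamed. The vessel-wall labels had their markers: all 10 of 10 endothelial markers were detected in the Endothelial-like cluster 17, and 5 of 6 smooth muscle markers in the SMC-like cluster 20. The 8 fibroblast markers were also high in cluster 20, at 48310 CPM summed in WT and 29430 CPM in Gsdme-KO with 0 of 8 higher, while its 6 smooth muscle markers summed to 5786 and 8556 CPM with 5 of 6 higher; none was at 0. The part of this shift in the values of cluster 20 below was not tested. In WT the fibroblast sum of cluster 20 was near the 53950 CPM of Fibroblast-like cluster 0, so its values are not those of smooth muscle alone. Orders of levels are given over the 14 named clusters compared. They are by CPM, per UMI and not per cell, and median depth differed between clusters.

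UMIs were summed per cluster and library, and a pair of gene and cluster was measured with at least 10 CPM and 30 UMIs over both libraries. A pair was counted as higher or lower in Gsdme-KO with a ratio of at least 1.5 or its inverse and an interval that excluded 1. Of 189 pairs, 137 were measured, 13 were higher and 16 were lower in Gsdme-KO, and the median log2 ratio was 0.02. Among all measured pairs of gene and cluster the same rule marked 4.69% as higher and 6.5% as lower. Of the 13 higher pairs, 11 lay in clusters where the gene reached at least 10% of its highest level, against 7 of the 16 lower pairs. The remaining 9 lower pairs were thus in clusters with little of the gene.

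**Figure D1:**
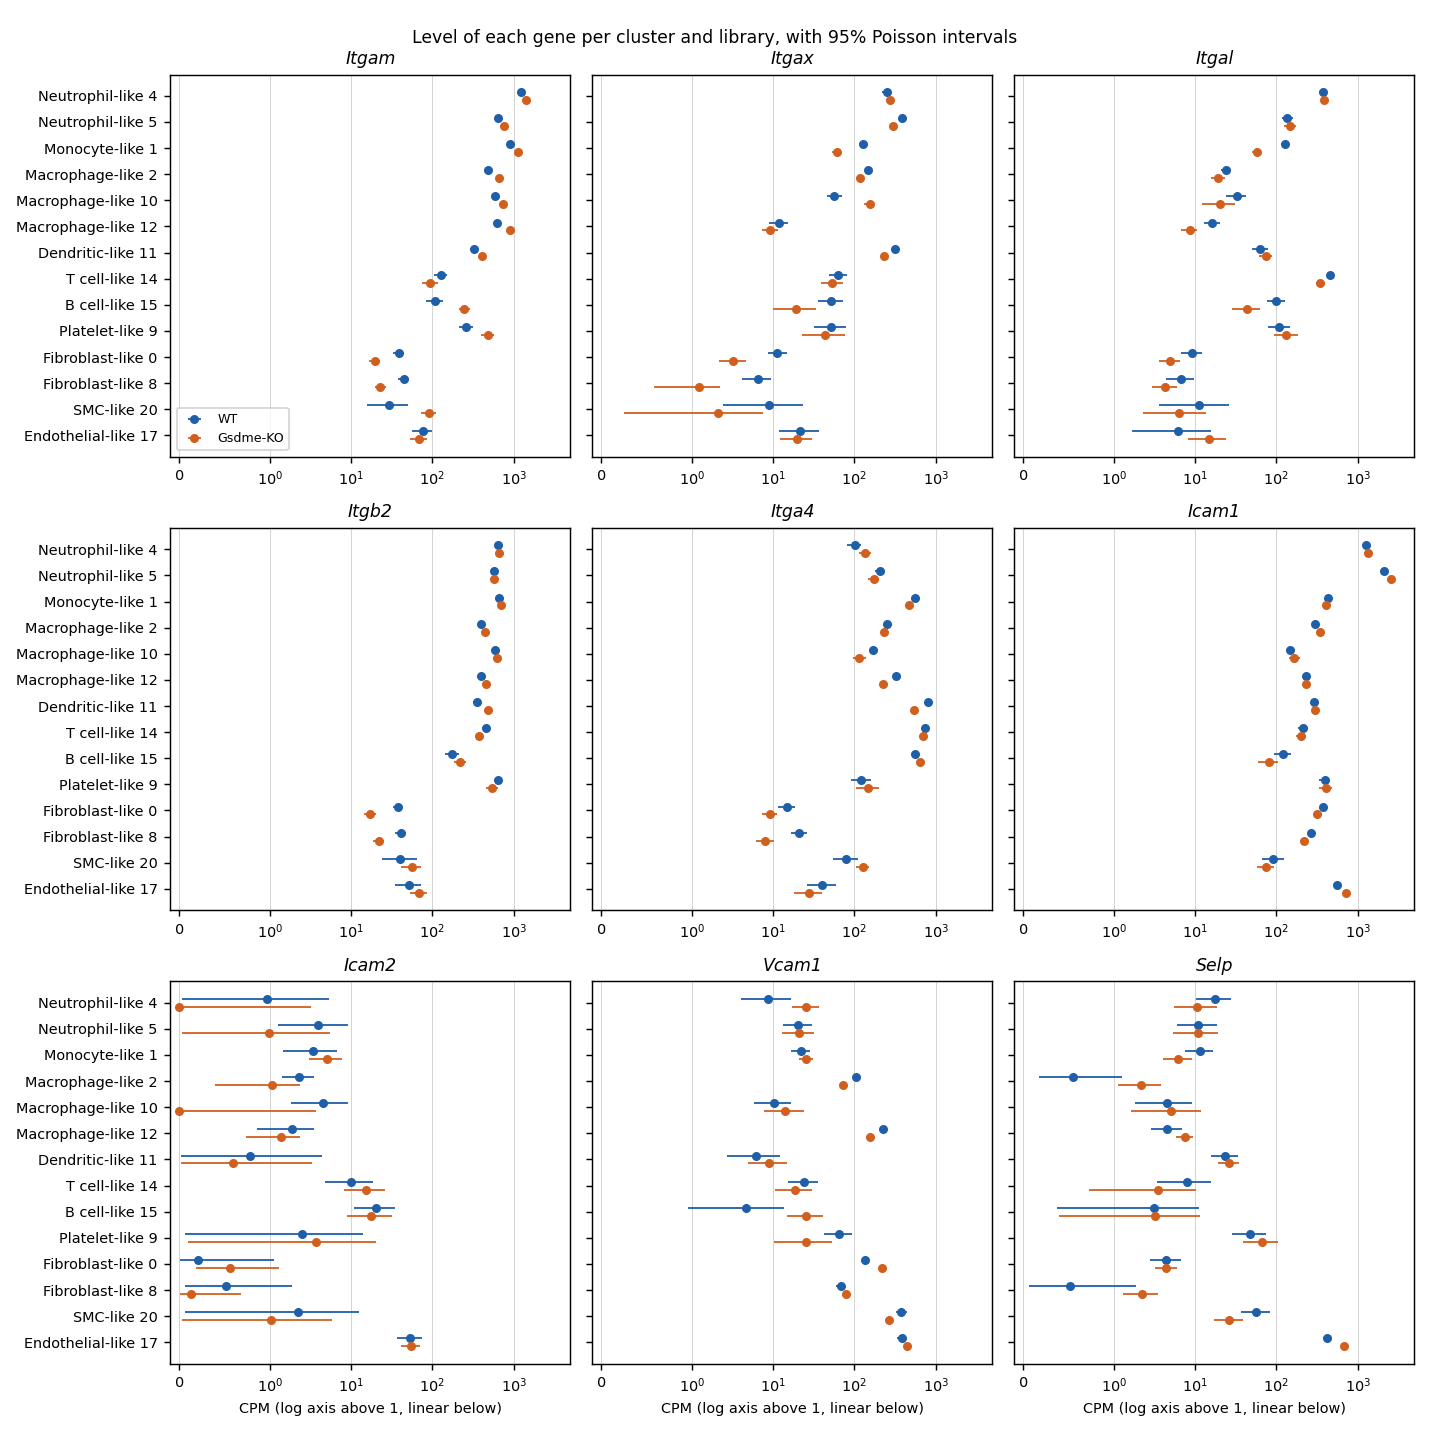
Level of each of the 9 genes (CPM, on an axis that is logarithmic above 1 and linear below) in the 14 named clusters that were compared, with WT in blue, Gsdme-KO in orange and bars for 95% Poisson intervals. Itgam, Itgb2 and Itga4 are spread over the leukocyte clusters, Vcam1 is highest in Endothelial-like cluster 17 and present in SMC-like, fibroblast-like and macrophage-like clusters, and Selp stands out in Endothelial-like cluster 17 at 422 and 689 CPM.

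Itgam (ENSMUSG00000030786, chr7:128062640-128118491, mm10) encodes CD11b, the α chain of the receptor Mac-1 that binds ICAM-1, fibrinogen and complement fragments. By CPM its level was highest in Neutrophil-like cluster 4, at 1240 CPM (1173 to 1310) in WT and 1399 CPM (1331 to 1470) in Gsdme-KO. Monocyte-like cluster 1 came next with 893 and 1117 CPM, and the interval of each stood clear of the next named cluster. Unnamed cluster 6 had 887 CPM in WT (848 to 928), which overlapped the monocyte-like cells, and 924 CPM in Gsdme-KO (881 to 968). In WT, Neutrophil-like cluster 5, Macrophage-like cluster 12 and Macrophage-like cluster 10 could not be ordered, since their intervals overlapped between 544 and 684 CPM. In both libraries the fibroblast-like clusters lay at the bottom, at or under 44.3 CPM, with SMC-like cluster 20 at 29.3 CPM in WT.

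Itgam was higher in the Gsdme-KO library throughout the named myeloid clusters, by less than the 1.5-fold used for a call in each of them. In unnamed cluster 6, led by Arg1, the ratio was 1.04 and the level intervals of the libraries overlapped. In Macrophage-like cluster 12, led by Lyve1 and Cd163, genes known from resident macrophages, the level was 626 CPM in WT against 898 CPM in Gsdme-KO, giving a ratio of 1.43 (1.376 to 1.496). Macrophage-like cluster 2, led by Cd72 and Cx3cr1, had 478 and 669.6 CPM, a ratio of 1.40 (1.34 to 1.46). With cells downsampled to 1000 UMIs each (called thinned below), the share of cells with an Itgam UMI was 44.5% and 53.8% in cluster 12 and 33.5% and 44.1% in cluster 2, against 3.24% and 2.13% in Fibroblast-like cluster 0 (median depths 8051 and 9811 UMIs). Within clusters 12 and 2, Itgam was therefore higher in Gsdme-KO by the share of positive cells as well as by CPM. These shares are of the cells of each cluster, not of the library. Monocyte-like cluster 1 (1.25, 1.19 to 1.32), Dendritic-like cluster 11 (1.27, 1.13 to 1.44) and Macrophage-like cluster 10 (1.28, 1.16 to 1.41) had ratios of like size, and the neutrophil-like clusters had 1.13 (1.05 to 1.22) and 1.18 (1.07 to 1.30). Marker shifts in clusters 1 and 11 are given with Itgal and Itga4, and their part in these ratios was not tested.

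Itgam passed 1.5-fold higher in 6 clusters, 3 of them unnamed. Platelet-like cluster 9 had 261 CPM (105 UMIs) in WT and 477 CPM (130 UMIs) in Gsdme-KO, giving a ratio of 1.83 (1.40 to 2.39), where 6.49% of all measured genes were higher. In the same cluster all 10 of 10 monocyte markers were higher in Gsdme-KO (2573 and 3432 CPM summed), while 8 of 18 macrophage markers were (4698 and 4526 CPM), with Timd4 at 0 in Gsdme-KO; their part in the Itgam ratio was not tested. B cell-like cluster 15 had 107 CPM (69 UMIs) and 247 CPM (154 UMIs), a ratio of 2.30 (1.72 to 3.10), beside 6.37% of all genes. There 15 of 18 macrophage markers were higher too, their sum being 1927 CPM in WT, where Cd163 was at 0, and 4584 CPM in Gsdme-KO, and their part in the ratio was not tested. SMC-like cluster 20 had 13 and 87 UMIs (29.3 and 91.1 CPM, ratio 3.11, 1.73 to 6.08) against a background of 6.73%, with 11 of 18 macrophage markers higher (1274 and 1446 CPM; Timd4 at 0 in both libraries; part not tested). Without the 5% of cells with the highest doublet scores the ratio in cluster 20 was 1.504 and the call was lost, as it was after thinning, where the ratio was 6.46. The calls in clusters 9 and 15 were lost as a mean over cells (1.39) and after thinning (1.38) respectively. The other 3 were unnamed: cluster 3 (ratio 1.69, background 7.73%), cluster 7, led by the proliferation gene Top2a (1.55, background 5.83%), and cluster 21 (3.03, background 10.3%).

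Both fibroblast-like clusters had less Itgam in the Gsdme-KO library: 38.5 and 19.6 CPM in cluster 0 (ratio 0.51, 0.413 to 0.629) and 44.3 and 23.0 CPM in cluster 8 (0.52, 0.420 to 0.643), where 8.91% and 8.16% of all genes were lower. The 18 macrophage markers summed to 880 and 485 CPM in cluster 0, with 4 higher in Gsdme-KO and Timd4 at 0 there, and to 886 and 445 CPM in cluster 8, with 0 higher and none at 0. Their part in the fibroblast values was not tested. A gene model on the same strand, Gm49368, overlaps Itgam and held 3.04% and 2.74% as many UMIs, so a small share of reads could be assigned to either.

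In the Itgam promoter the ETS-type motif GAGGAAG, the kind of site that the myeloid factor PU.1 reads, was found 84 to 78 bases before the start, on the plus strand. Both strands were searched, and 3486 of 32851 mouse promoters of the same length (10.6%) hold these letters. No match was found in the promoters of Itgax, Itga4, Icam1 or Selp.

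Itgax (ENSMUSG00000030789, chr7:128129547-128150657), which lies just downstream of Itgam, encodes CD11c, the α chain of the complement receptor that marks dendritic cells and many tissue macrophages. By CPM it was highest in Neutrophil-like cluster 5, at 391 CPM (357 to 427) in WT and 299.5 CPM (267 to 335) in Gsdme-KO. The order is not one per cell. In WT that cluster held 498 Itgax UMIs in 721 cells, against 408 in the 252 cells of Dendritic-like cluster 11. Their median depths in WT were 1627 and 5080 UMIs. Dendritic-like cluster 11 had 318 CPM (288 to 350) and 234 CPM (212 to 258), and Neutrophil-like cluster 4 had 249 CPM (219.5 to 281) and 271 CPM (242 to 303). These 3 clusters were in a clear order by CPM in WT, while in Gsdme-KO neighbours overlapped. The 2 large macrophage clusters differed in Itgax within each library: cluster 12 had 0.0792 times the level of cluster 2 in WT and 0.0781 times in Gsdme-KO. Of these 2 macrophage clusters, Itgax was therefore read mainly in the Cx3cr1 cluster. It was near absent, at 11.8 and 9.20 CPM, from the Lyve1 cluster in both libraries.

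Over all cells, Itgax fell from 93.9 CPM in WT to 50.5 CPM in Gsdme-KO (ratio 0.538, 0.511 to 0.565), against 3.5% of all genes lower by the same rule. With the levels of WT and the cluster shares of Gsdme-KO the ratio would have been 0.712, and with the shares of WT and the levels of Gsdme-KO 0.805, so both the cluster shares and the levels within clusters moved the sum down. Cluster shares here are shares of a library's UMIs, so depth per cell enters them as well as cell numbers. Macrophage-like cluster 2, an Itgax cluster, made up 17.5% of WT cells and 9.28% of Gsdme-KO cells.

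Within clusters, Itgax moved both ways. Monocyte-like cluster 1 had 127 CPM (113 to 143; 301 UMIs) in WT and 60.9 CPM (53.5 to 69.1; 244 UMIs) in Gsdme-KO, giving a ratio of 0.479 (0.403 to 0.569), where 5.28% of all genes were lower. The ratio was 0.701 and no longer past 1.5-fold when cells were thinned to 1000 UMIs, with 9.18% (6.52 to 12.5) and 6.73% (4.85 to 9.06) of cells positive. Macrophage-like cluster 10, led by Gpnmb, Mmp12 and Spp1, went the other way: 57.0 CPM (89 UMIs) in WT and 154 CPM (152 UMIs) in Gsdme-KO, giving a ratio of 2.70 (2.06 to 3.55), against 4.1% of all genes. The share of thinned cells with an Itgax UMI was 3.98% (1.73 to 7.69) and 11.9% (7.35 to 18.0). It kept its call in the 8 alternatives that gave a value, from 2.41 to 3.48, while the cluster itself had no match in the other clusterings. The median depth of cluster 10 was 5004 UMIs in WT and 2788 in Gsdme-KO, a difference whose part was not tested. Relative to cluster 2 of the same library, its Itgax level was 0.382 in WT and 1.31 in Gsdme-KO.

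Itgax was also lower in B cell-like cluster 15 (51.4 and 19.3 CPM, 33 and 12 UMIs, ratio 0.375, background 9.35%), where 1 WT cell held 16 of the UMIs, and in unnamed cluster 13 (283 and 155 CPM, ratio 0.547, 0.394 to 0.753, background 4.86%). Without the cell richest in Itgax in each library the call in cluster 15 was lost. Of 15 measured clusters, 1 was higher, 3 were lower and the intervals of 8 included 1.

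Itgal (ENSMUSG00000030830, chr7:127296260-127335138) encodes CD11a, the α chain of LFA-1, the receptor through which T cells bind ICAM-1 and ICAM-2. Among the named clusters T cell-like cluster 14 was highest in WT with 462 CPM (421 to 506), and Neutrophil-like cluster 4 had 371 CPM (335 to 410). In Gsdme-KO the values were 349.8 CPM (311 to 392) and 387 CPM (351 to 424) and their intervals overlapped. The T cell ratio was 0.757 (0.652 to 0.877), with 36.9% and 22.7% of thinned cells positive, and did not pass 1.5-fold. Across 11 alternatives it ran from 0.614 to 0.776, so the lowest value was past the inverse of 1.5. The neutrophil-like clusters differed as for Itgam: cluster 4 held 2.72 times the Itgal level of cluster 5 in WT and 2.62 times in Gsdme-KO, beside 1.94 and 1.86 times for Itgam.

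Itgal was lower in Gsdme-KO monocyte-like cells under every alternative that gave a value. Monocyte-like cluster 1 had 129 CPM (115 to 144; 304 UMIs) in WT and 57.5 CPM (50.3 to 65.4; 230 UMIs) in Gsdme-KO, giving a ratio of 0.447 (0.375 to 0.532). Positive cells were 12.2% (9.17 to 15.9) and 5.22% (3.57 to 7.33) after thinning, and the call was kept in 10 of 10 alternatives, from 0.355 to 0.510. In this cluster the neutrophil markers summed to 430.4 CPM in WT against 215 CPM in Gsdme-KO with 1 of 10 higher and Ly6g at 0 in both, monocyte markers to 12190 and 10570 CPM with 2 of 10 higher, and macrophage markers to 5413 and 7031 CPM with 11 of 18 higher, with no monocyte or macrophage marker at 0. Their part in the lower Itgal and Itgax values was not tested. In WT the Monocyte-like cluster held 5.33 times the Itgal of Macrophage-like cluster 2 and in Gsdme-KO 3.01 times. The gene was also lower in B cell-like cluster 15 (99.6 and 43.3 CPM, ratio 0.435, 0.267 to 0.692), Macrophage-like cluster 12 (16.2 and 8.57 CPM, ratio 0.529, background 3.1%) and unnamed cluster 7 (34.1 and 15.4 CPM, ratio 0.453, background 9.11%). None of the 13 measured clusters was higher. Over all cells Itgal went from 59.8 to 37.9 CPM (0.634, 0.597 to 0.674), a call that was lost under 4 of 8 alternatives, where the ratio reached 0.818.

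Itgb2 (ENSMUSG00000000290, chr10:77530252-77565708) encodes CD18, the β2 chain that each of these 3 α chains needs to reach the cell surface. It was present at like levels in most leukocyte clusters. In WT, Monocyte-like cluster 1 had 665 CPM, Platelet-like cluster 9 had 641 CPM, Neutrophil-like cluster 4 had 640.4 CPM, Macrophage-like cluster 10 had 592 CPM and Neutrophil-like cluster 5 had 566 CPM, each overlapping the next. The Gsdme-KO values of the same clusters were 698, 547, 659, 629 and 575 CPM, and no ratio among them was past 1.5-fold. The intervals of 14 of the 21 measured ratios included 1.

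The widest Itgb2 difference in a named leukocyte cluster was in Dendritic-like cluster 11, with 351 CPM (319 to 385) and 484 CPM (451 to 518), a ratio of 1.38 (1.23 to 1.55). Monocyte markers were higher and dendritic markers lower in sum in that cluster in Gsdme-KO, as given with Itga4, and their part was not tested. T cell-like cluster 14 had 453 and 376 CPM (0.829, 0.716 to 0.958). There the macrophage markers summed to 1781 and 946.5 CPM with 1 of 18 higher and Timd4 at 0 in Gsdme-KO, and their part was not tested. Unnamed cluster 3 was past the fold (126 and 216 CPM, 24 and 56 UMIs, ratio 1.71, 1.04 to 2.89), as were the fibroblast-like clusters on the lower side, with 38.2 and 17.1 CPM (0.448, 0.360 to 0.557) and 40.6 and 21.9 CPM (0.539, 0.433 to 0.672), beside the macrophage marker sums given for Itgam. Itgb2 was read in cells with and without a UMI of an α chain: in Monocyte-like cluster 1, 40.5% of Itgam-positive and 47.6% of Itgam-negative WT cells had an Itgb2 UMI after thinning, and in Gsdme-KO 52.3% and 44.4%.

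Itga4 (ENSMUSG00000027009, chr2:79255426-79333123) encodes CD49d, which with the β1 chain forms VLA-4, the main receptor for VCAM-1. Its highest levels were in lymphoid and antigen-presenting clusters. In WT, Dendritic-like cluster 11 had 810 CPM (762 to 861) and T cell-like cluster 14 had 746 CPM (694 to 802), and these overlapped. In Gsdme-KO the T cells had 707 CPM (651 to 765) and B cell-like cluster 15 had 647 CPM (585 to 713), and dendritic cells came next with 538 CPM (503 to 574). Neutrophil-like cluster 4 was low in both, with 101 and 135 CPM.

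The dendritic ratio was 0.664 (0.607 to 0.726), just past 1.5-fold, against 6.91% of all genes lower. It kept the call in only 2 of 11 alternatives, with ratios from 0.649 to 0.803, and the share of thinned cells was 41.4% and 36.6%. Dendritic markers in this cluster summed to 3726 CPM in WT and 2832 in Gsdme-KO (4 of 11 higher), macrophage markers to 1966 and 1246 CPM (5 of 18), monocyte markers to 1913 and 2618 CPM (8 of 10) and fibroblast markers to 484 and 1252 CPM (7 of 8), with none at 0, and their part was not tested. Macrophage-like cluster 12 fell just short of the threshold at 329.6 and 226 CPM (0.686, 0.643 to 0.733), as did Macrophage-like cluster 10 at 171 and 115 CPM (0.675). SMC-like cluster 20 was higher, with 78.8 CPM (35 UMIs) and 127 CPM (121 UMIs), a ratio of 1.61 (1.10 to 2.41) that kept its call in 7 of 11 alternatives, beside fibroblast markers at 48310 and 29430 CPM and smooth muscle markers at 5786 and 8556 CPM in that cluster. The fibroblast-like clusters were lower at levels of at most 21.0 CPM (ratios 0.618 in cluster 0 and 0.38 in cluster 8), beside the macrophage marker sums given for Itgam. These calls were kept in 5 of 11 alternatives in cluster 0 and in 8 of 10 in cluster 8. Of 21 measured clusters only 5 had a ratio above 1, and the median log2 ratio was -0.26.

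**Figure D2:**
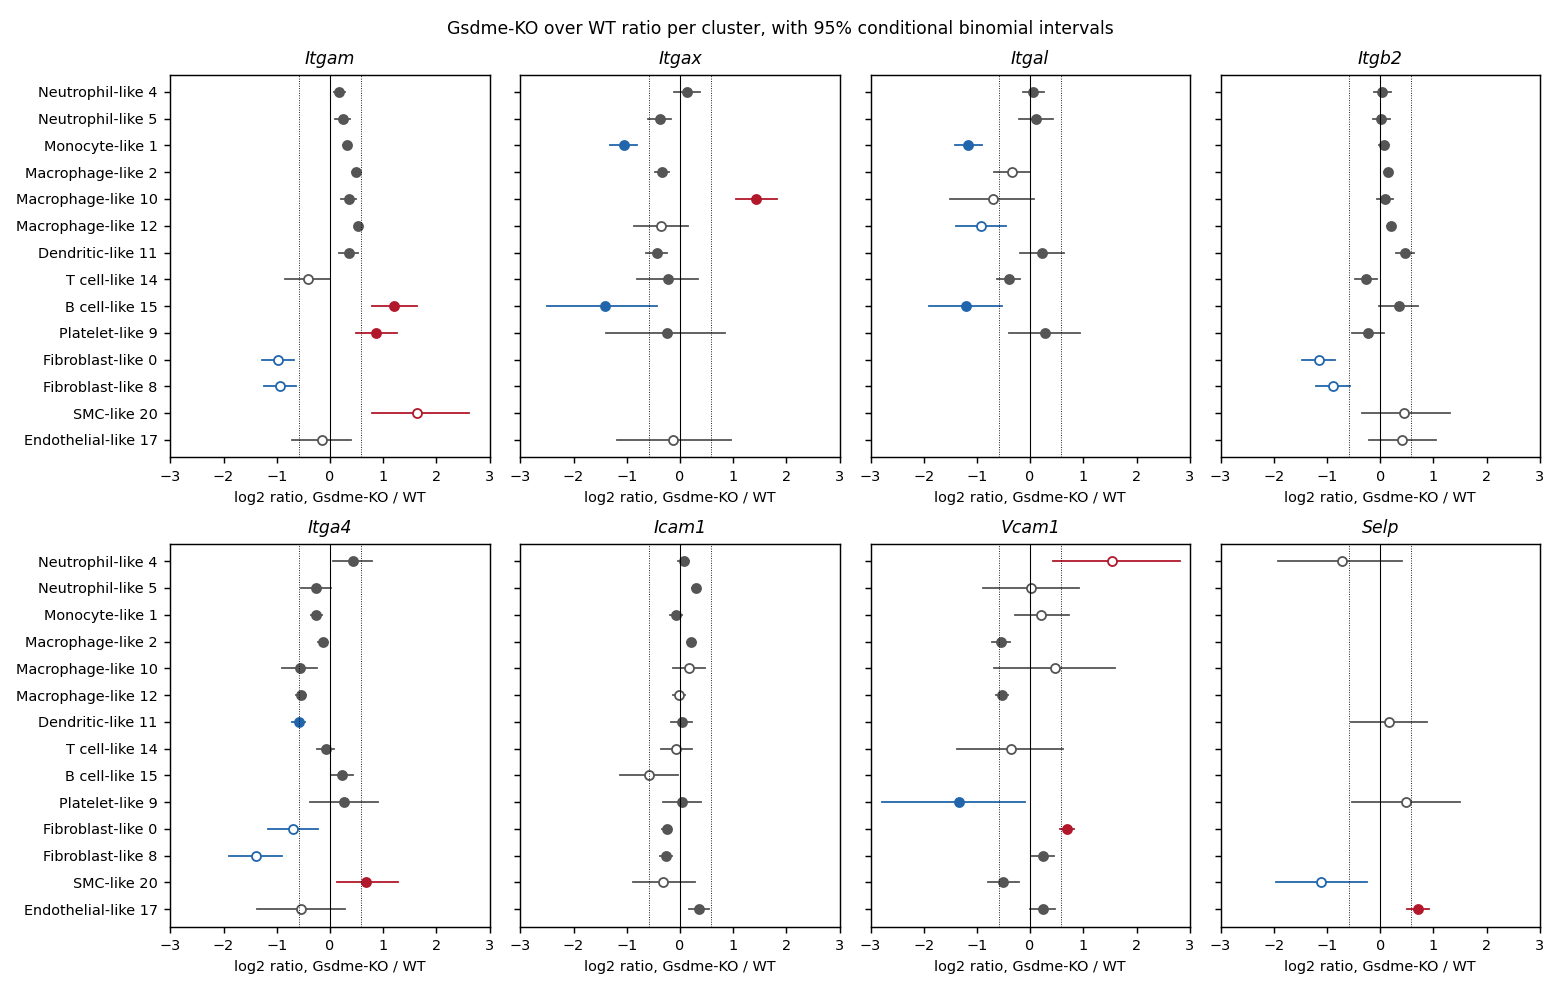
Ratio of Gsdme-KO over WT on a log2 axis for each measured pair of gene and named cluster, with 95% intervals for counting error, dotted lines at 1.5-fold, red for higher, blue for lower and grey for neither. Icam2 and the 7 unnamed clusters are not drawn. Open circles mark clusters where the gene was under 10% of its highest level. With the unnamed clusters counted as well, the ratio was above 1 in 17 of 21 clusters for Itgam and in 5 of 21 for Itga4. Icam1 passes the lines in none.

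Icam1 (ENSMUSG00000037405, chr9:21015985-21028817) encodes ICAM-1, the ligand of LFA-1 and Mac-1 on endothelium that is also carried by activated leukocytes and stromal cells. By CPM its highest level was in the neutrophil-like clusters, ahead of endothelium. Median depths were 1627 and 1564 UMIs in Neutrophil-like cluster 5 against 3950 and 3876 in Endothelial-like cluster 17. The order is therefore per UMI and not per cell. Neutrophil-like cluster 5, led by Il23a, Siglecf and Mmp9, had 2094 CPM (2015 to 2175) in WT and 2576 CPM (2478 to 2677) in Gsdme-KO, and 60.5% and 68.1% of its thinned cells were positive. Neutrophil-like cluster 4, led by S100a8, S100a9 and Cxcr2, had 1269 CPM (1201 to 1340) and 1331 CPM (1265 to 1400). Cluster 4 thus held 0.606 times the Icam1 of cluster 5 in WT and 0.517 times in Gsdme-KO, the reverse of the order for Itgam and Itgal.

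Endothelial-like cluster 17 followed in both libraries, with 562 CPM (505 to 623; 363 UMIs) in WT and 721 CPM (669.8 to 775; 732 UMIs) in Gsdme-KO. Its ratio was 1.28 (1.13 to 1.46) and that of Neutrophil-like cluster 5 was 1.23 (1.17 to 1.30), both under 1.5-fold. Fibroblast-like cluster 0 had 378 and 318 CPM, B cell-like cluster 15 had 119.8 and 80.3 CPM, and SMC-like cluster 20 was lowest at 92.3 and 74.4 CPM. Every one of the 14 named clusters compared held at least 74.4 CPM. None of the 21 measured clusters was called either way, 11 ratios were above 1, and the median log2 ratio was 0.01.

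The Icam1 promoter carried the NF-kB-type motif GGAANTTCC as GGAAATTCC, 153 to 145 bases before the start. Its letters are rare: 267 of 32851 promoters (0.813%) hold them on either strand. They were not found in the promoters of Itgam, Itgax, Itga4 or Selp. TATAAA, searched in the same way and held by 12.4% of promoters, was found in none of the 5.

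Icam2 (ENSMUSG00000001029, chr11:106377656-106388075) encodes ICAM-2, a second ligand of LFA-1. It was scarce, with 124 UMIs in WT and 155 in Gsdme-KO over all cells (3.19 and 2.97 CPM), under the 10 CPM needed for a comparison. Endothelial-like cluster 17 held 27.4% and 35.5% of these UMIs. Its level there was 52.6 CPM (36.4 to 73.5; 34 UMIs) and 54.2 CPM (40.8 to 70.5; 55 UMIs), a ratio of 1.03 (0.660 to 1.63). B cell-like cluster 15 followed with 20.2 and 17.7 CPM and T cell-like cluster 14 with 10 and 15.2 CPM. The interval of the endothelial ratio leaves room for a change of 1.5-fold in either direction, so none could be seen at this depth.

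Vcam1 (ENSMUSG00000027962, chr3:116109949-116129688) encodes VCAM-1, the endothelial and stromal ligand of VLA-4. Its highest levels were in cells of the vessel wall. Endothelial-like cluster 17 had 382 CPM (336 to 433) in WT and 449 CPM (409 to 492) in Gsdme-KO, giving a ratio of 1.18 (1.004 to 1.38). Positive cells there were 10.7% (5.02 to 19.4) and 19.8% (12.5 to 28.9) after thinning, and the top 5% of cells held 64.8% and 67.8% of the Vcam1 UMIs. SMC-like cluster 20 had 378 CPM (323 to 439.9) and 267 CPM (235 to 302), so that clusters 17 and 20 were level in WT, with 1.01 times, and apart in Gsdme-KO, with 1.68 times. The ratio in cluster 20 was 0.706 (0.579 to 0.863) and did not pass 1.5-fold, in a cluster whose fibroblast markers went from 48310 to 29430 CPM and whose smooth muscle markers went from 5786 to 8556 CPM.

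Fibroblast-like cluster 0, led by Sfrp1 and Mfap4, was the only wall cluster past 1.5-fold for Vcam1. It had 135 CPM (125 to 145; 666 UMIs) in WT and 218 CPM (208 to 228; 1958 UMIs) in Gsdme-KO, giving a ratio of 1.62 (1.48 to 1.77), against 3.6% of all genes higher in that cluster. Positive cells after thinning were 10.97% (8.497 to 13.9) and 15.4% (13.0 to 18.1), with 1.00% and 1.10% in T cell-like cluster 14 (median depths 2669 and 2638 UMIs). The richest cell of either library held 37 UMIs, so no single cell made the difference. The call was lost at a coarser clustering (1.46), as a mean over cells (1.44) and after thinning (1.46), and the ratio was 1.82 with TMM scaling. Fibroblast-like cluster 8 had 67.8 and 79.9 CPM (1.18, 1.02 to 1.37), and cluster 0 held 1.99 times its level in WT and 2.73 times in Gsdme-KO. The 10 endothelial markers summed to 46.3 and 47.2 CPM in cluster 0.

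Macrophages carried Vcam1 as well. In the Lyve1-marked Macrophage-like cluster 12 the level was 225 CPM (212 to 239) and 155 CPM (147 to 163), a ratio of 0.691 (0.638 to 0.748), and 14.8% and 10.1% of thinned cells were positive. Macrophage-like cluster 2 had 106 and 72.7 CPM, a ratio of 0.684 (0.607 to 0.769). Both fell short of the 1.5-fold rule while their intervals excluded 1. The ratio of cluster 12 to cluster 2 was 2.11 in WT and 2.14 in Gsdme-KO, the opposite of the order for Itgax.

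The other Vcam1 calls rested on few UMIs. Neutrophil-like cluster 4 had 9 and 29 UMIs (8.72 and 25.5 CPM, ratio 2.92, background 5.07%), with endothelial markers at 80.4 and 122 CPM summed, 5 of 10 of them higher, and Tie1 and Egfl7 at 0 in WT and Tie1, Tek, Cldn5 and Mmrn2 at 0 in Gsdme-KO; their part was not tested. Unnamed cluster 3 had 7 and 58 UMIs, of which a single Gsdme-KO cell held 44, and the ratio of 6.07 was 1.98 without the richest cells. Platelet-like cluster 9 had 26 and 7 UMIs (64.6 and 25.7 CPM, ratio 0.398, 0.146 to 0.941), where 7.07% of all genes were lower, and kept its call in 6 of 11 alternatives.

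Selp (ENSMUSG00000026580, chr1:164115264-164150026) encodes P-selectin, stored in the granules of platelets and endothelial cells and moved to the surface on activation. Its UMIs lay mostly in endothelium. Endothelial-like cluster 17 had 422 CPM (374 to 476; 273 UMIs) in WT and 689 CPM (639 to 742; 699 UMIs) in Gsdme-KO, 54.8% and 67.4% of all Selp UMIs. Platelet-like cluster 9 had 47.2 CPM (19 UMIs) and 66.1 CPM (18 UMIs), and SMC-like cluster 20 had 56.3 and 26.2 CPM (25 UMIs in each). Every other named cluster that was compared was at or under 26.1 CPM.

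The endothelial ratio was 1.63 (1.42 to 1.88), against 4.06% of all genes higher in that cluster. The share of cells with Selp was close in the libraries: 20.2% (12.3 to 30.4) of 84 thinned WT cells and 19.8% (12.5 to 28.9) of 101 thinned Gsdme-KO cells were positive, with 20 and 41 shallower cells left out, and before thinning the shares were 36.5% and 31.7%. In T cell-like cluster 14 the thinned shares were 0.665% and 0.366%. The difference lay in cells that held many UMIs. The richest cell had 43 UMIs in WT and 122 in Gsdme-KO, and the top 5% of cells (5 and 7 cells) held 41.0% and 55.9% of the UMIs. Without the richest cell of each library the ratio was 1.62. As a mean over cells it was 1.16, after thinning 1.29 and with the coarser clustering 1.35, and in each of these the call was lost. Over all cells Selp was at 12.8 and 19.9 CPM (1.55, 1.39 to 1.73), where 4.64% of all genes were higher, and this call was lost in the same way as a mean over cells and after thinning (1.25), and without the richest cells (1.498).

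SMC-like cluster 20 was lower in Selp, with a ratio of 0.465 (0.256 to 0.844) and 6.8% of all genes lower. The call was lost in 4 of 11 alternatives, among them without the richest cell (0.598) and without the 5% of cells with the highest doublet scores (0.821). Its 10 endothelial markers summed to 169 and 123 CPM, 4 of them higher, with Tie1, Tek, Egfl7, Cldn5 and Mmrn2 at 0 in WT and Tie1, Kdr, Egfl7, Cldn5 and Cyyr1 at 0 in Gsdme-KO, and their part was not tested, nor was that of the fibroblast and smooth muscle marker shift of the cluster. The Selp level of Endothelial-like cluster 17 over that of SMC-like cluster 20 was 7.51 in WT and 26.3 in Gsdme-KO. The gene models Gm16587 and Gm16548 overlap Selp, and each held at most 12 UMIs in a library.

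E-selectin, encoded by Sele, is the selectin that endothelium makes on cytokine stimulation, and it was read in the same cells. In Endothelial-like cluster 17 it had 55.7 CPM (36 UMIs in 10 cells) in WT and 168 CPM (171 UMIs in 23 cells) in Gsdme-KO, giving a ratio of 3.02 (2.10 to 4.46). Without the richest cell of each library the levels were 37.5 and 126 CPM. Thinned shares were 2.38% and 7.92%. Among the 17 WT cells with a Selp UMI after thinning, 5.88% (0.149 to 28.7) also had Sele, and among the 20 such Gsdme-KO cells 35% (15.4 to 59.2) did. The matching shares for Vcam1 were 11.8% (1.46 to 36.4) and 50% (27.2 to 72.8), for Icam1 29.4% (10.3 to 56.0) and 65% (40.8 to 84.6), and for Icam2 11.8% (1.46 to 36.4) and 10% (1.24 to 31.7). In endothelial cells without Selp the shares were close in the 2 libraries: 1.49% and 1.24% for Sele, 10.4% and 12.3% for Vcam1, 38.8% and 38.3% for Icam1, and 7.46% and 4.94% for Icam2. The higher shares of Sele, Vcam1 and Icam1 in Selp-positive cells of the Gsdme-KO library rest on 20 cells, and for each of these 3 genes the interval overlaps that of WT.

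**Figure D3:**
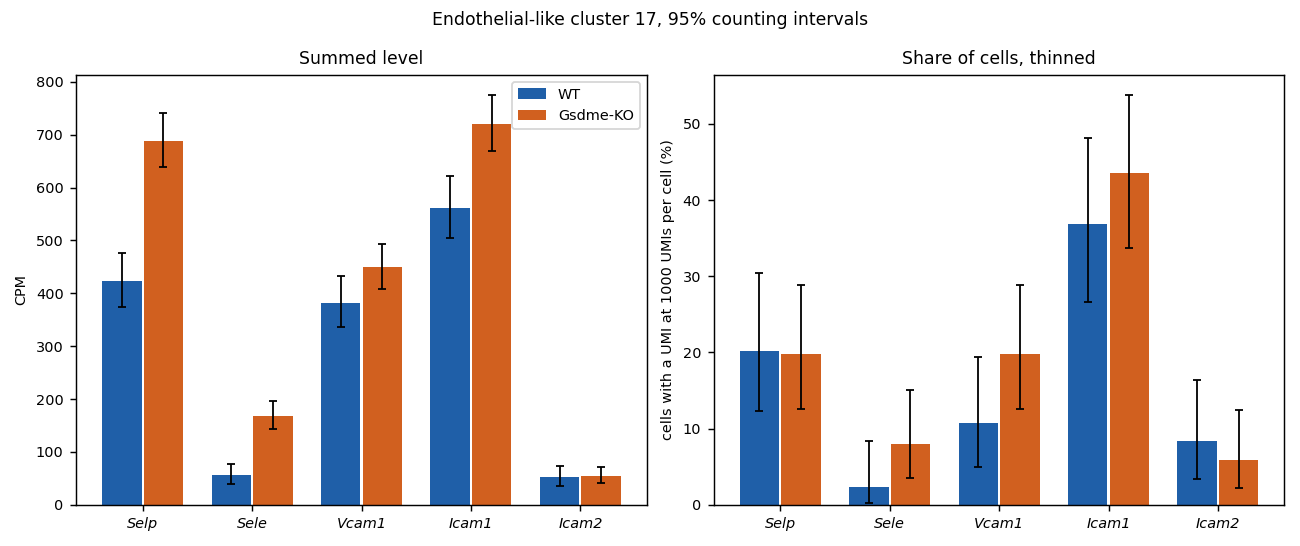
Selp, Sele, Vcam1, Icam1 and Icam2 in Endothelial-like cluster 17, as CPM of summed UMIs on the left and as the share of cells with a UMI after thinning to 1000 UMIs on the right, in WT and Gsdme-KO, with 95% counting intervals. Summed Selp rises from 422 to 689 CPM while its share of cells stays at 20.2% and 19.8%. Sele is higher in summed CPM, while its shares of 2.38% and 7.92% have overlapping intervals.

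The endothelial cells compared numbered 104 in WT and 142 in Gsdme-KO, with median depths of 3950 and 3876 UMIs. Their 10 endothelial markers summed to 5441 and 4826 CPM with none at 0, fibroblast markers to 2436 and 1365 CPM with 0 of 8 higher, and platelet markers to 237 and 264 CPM, of which Gp9, Gp1bb, Treml1 and Tubb1 were at 0 in WT and Gp9 in Gsdme-KO. Smooth muscle markers summed to 597 and 889.5 CPM with 5 of 6 higher and Cnn1 at 0 in Gsdme-KO, neutrophil markers to 172 and 330 CPM with 7 of 10 higher, Retnlg at 0 in WT and Ly6g in both, and macrophage markers to 1094 and 754 CPM with 5 of 18 higher and none at 0. The part of these in the Selp value was not tested.

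The genes whose levels followed each member most closely were sought over 42 sums (21 clusters in each library) of log2(CPM + 10) among 14032 genes, as a description, since the sums share libraries and depth. Itgam was followed by Tyrobp (r = 0.935), the adaptor of many myeloid receptors, then Nfam1 and Lilr4b. Itgb2 was followed by Laptm5 (r = 0.946), Cd53 and Arrb2, and Itgam and Itgb2 themselves had r = 0.876. Itgax went with Snx20 (0.905), Fem1c and Sema4d, Itgal with Atp11b (0.873), Spata13 and Akna, and Itga4 with Sla (0.913), Pik3cd and Dock8. Icam1 went with Adgrg3 (0.812), a receptor of neutrophils, 8030442B05Rik and Gm19696. On the vessel side Selp went with the endothelial genes Plvap (0.885), Ptprb and Aqp1, Icam2 with Spns2 (0.860), Dll1 and Nrarp, and Vcam1 with Hbegf (0.889), Tns1 and Sorbs3. Vcam1 and Itgax ran opposite to each other (r = -0.69).

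Around the 9 genes, 48 other adhesion genes were listed by role, of which 47 matched a feature. Over all cells 35 were measured, 0 were higher and 3 were lower, against 4.64% and 3.5% of all genes, with a median log2 ratio of -0.11 beside -0.07 for all measured genes. The lower genes were the laminin-receptor chain Itga6 (181 and 90.6 CPM, ratio 0.502), the junction molecule F11r (67.7 and 38.5 CPM, 0.569) and the β5 chain Itgb5 (179 and 109 CPM, 0.608). Sele, at 112 and 600 UMIs over all cells (2.88 and 11.5 CPM, ratio 3.99), missed the minimum of 10 CPM. In Endothelial-like cluster 17, 34 were measured and 3 were higher, against 4.06% of all genes: Sele, the vitronectin-receptor chain Itgav (89.8 and 228 CPM, ratio 2.54, 1.89 to 3.44) and Itga9 (52.6 and 85.7 CPM, 1.63, 1.08 to 2.50). Itga6 was lower there (495 and 310.3 CPM, 0.627, 0.535 to 0.734), in a cluster where 6.84% of all genes were lower, and the list's median of -0.13 stood beside -0.06.

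In Monocyte-like cluster 1, where Itgax and Itgal were lower, 6 of 26 measured list genes were lower and 0 were higher, against 5.28% and 4.57% of all genes. They included F11r (68.9 and 26.2 CPM, ratio 0.381), Itga6 (72.7 and 31.2 CPM, 0.429) and Itgb5 (101 and 55.7 CPM, 0.551), while the list's median of -0.03 was close to the -0.04 of all genes. Jaml, a junction adhesion protein of leukocytes, was higher in both large macrophage clusters, from 41.9 to 93.7 CPM in cluster 12 (2.24, 1.92 to 2.62) and from 7.53 to 16.2 CPM in cluster 2 (2.15, 1.55 to 2.99), where 2.42% and 1.83% of all genes were higher. In Neutrophil-like cluster 5, 4 of 24 were higher and 0 lower, beside 4.75% and 5% of all genes. Among them was St3gal6 (61.2 and 105 CPM, ratio 1.71), a sialyltransferase of selectin ligands. In Fibroblast-like cluster 0, 1 of 27 was higher, Sele (8.30 and 24.2 CPM, 2.91, 2.08 to 4.17), and 3 were lower, near the 3.6% and 8.91% of all genes: Selplg, which encodes the P-selectin ligand of leukocytes (0.386), Alcam (0.496) and F11r (0.664).

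Over all cells, 3 of the 9 members passed 1.5-fold: Itgax and Itgal lower and Selp higher. By the same rule 3.5% of all genes were lower and 4.64% were higher, and Icam2 was not measured. For the others, Itgam stood at 430 and 485 CPM (1.13, 1.11 to 1.15), Itgb2 at 345 and 305 CPM (0.883), Itga4 at 245 and 179 CPM (0.732), Icam1 at 377 and 352 CPM (0.933) and Vcam1 at 98.3 and 117 CPM (1.19). For Itgam the cluster shares and the levels pulled apart: cluster shares alone gave 0.873 and levels alone 1.30. For Vcam1 the shares gave 1.13 and the levels 0.989, and for Selp 1.12 and 1.37.

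**Figure D4:**
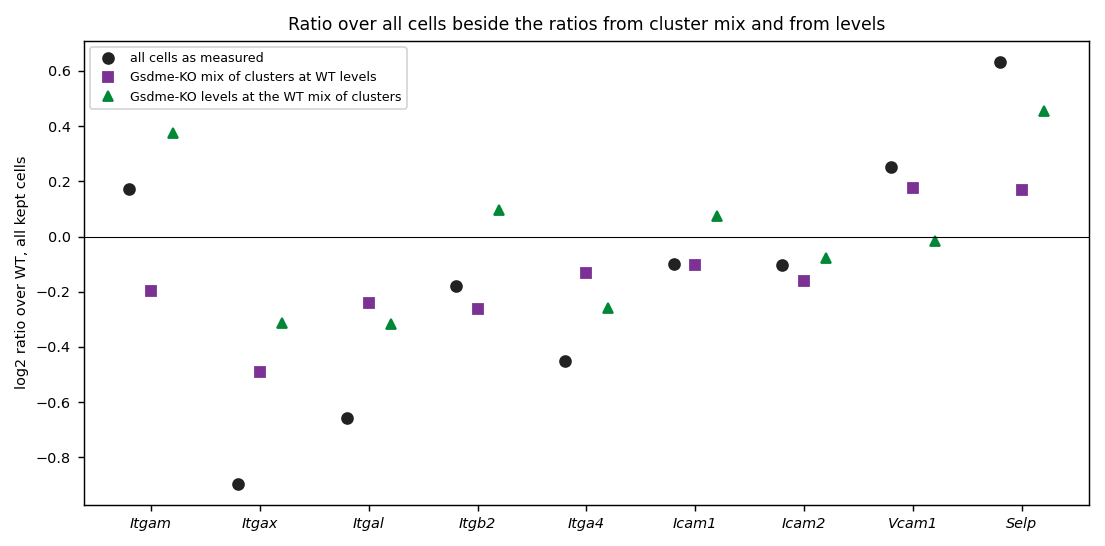
For each gene, the log2 ratio of Gsdme-KO over WT over all cells, the ratio from the change in cluster shares (of UMIs) alone and the ratio from the change in levels within clusters alone. Itgam is pulled to opposite sides by the shares (0.873 as a ratio) and the levels (1.30), while for Itgax both lie below 1 (0.712 and 0.805).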

How the data were processed

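The deposited values are raw UMI counts (whole numbers) for genes and cell barcodes, with 500 UMIs as the lowest barcode total in each library. Per the submitters' processing notes, CASAVA 1.8, STARsolo and the mm10 build were used, in roles not stated. The annotation, and whether counting used strand, are not given in the sources used here; Cerkl overlaps Itga4, Gm47079 Icam1 and Gm43109 Vcam1. Positions are from GENCODE M21, and promoters from RefSeq (GRCm38.p6; 5 of 9 members matched). Groups follow the labels.

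Cells with at least 500 UMIs, 250 genes and at most 25% mitochondrial UMIs were kept (16403). Scanpy 1.11.5 clustered them without integration (2000 variable genes, 30 components, 15 neighbours, Leiden resolution 1), and 22 marker lists named clusters, as X-like, from at least 3 detected markers. A marker was detected if read in at least 25% of a cluster's cells and at least 2-fold over the other cells. Shallow clusters without a marker of their list among their leading genes stayed unnamed, such as cluster 19 with 8 of 8 fibroblast markers. Scrublet marked 0 WT and 1 Gsdme-KO cell and so had not worked: doublets remain. Counts were summed per cluster and library as CPM with exact Poisson intervals, ratios have exact conditional binomial intervals, and shares have Clopper-Pearson intervals. Median-of-ratios factors and the TMM factors of edgeR 4.0.16 served as alternatives. The interval code was tested on simulated data.

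All 9 members are named. Of the adhesion list at most 3 genes each way per cluster are named, those past 1.5-fold ranked by the interval end nearest 1, and for each member the 3 genes most like it. A gene that this rule names is not reported here. The members and lists were chosen with earlier results of these data known. Genes named as leading a cluster define it and are not results.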

Additional observations from a re-analysis of the deposited data

Results flagged for a closer look

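The 3 genes Itgax, Vcam1 and Itga4 were past 1.5-fold in opposite directions in clusters that held at least 10% of the gene's highest level, and the difference between the clusters was not tested in any of these pairs, since each rests on 1 library per group. Itgax had a ratio of 2.698 in Macrophage-like cluster 10 and of 0.4789 in Monocyte-like cluster 1. Vcam1 had a ratio of 1.617 in Fibroblast-like cluster 0 and of 0.3976 in Platelet-like cluster 9, where it rested on 26 and 7 UMIs. Itga4 had a ratio of 1.608 in SMC-like cluster 20 and of 0.6637 in Dendritic-like cluster 11.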

How the results depend on the processing

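Of the alternative values of single ratios, 1340 lay within the counting interval of the reported ratio and 150 lay outside it. A further 2, both of called pairs, changed direction. They were Vcam1 in unnamed cluster 3, at 0.8333 with the members kept in the clustering, and Vcam1 in Platelet-like cluster 9, at 1.425 after thinning. Changes of direction were counted for called pairs only, and ratios that were not called crossed 1 as well. Vcam1 in Endothelial-like cluster 17 (1.175) had alternatives from 0.8783 to 1.782. Itgal in Macrophage-like cluster 10 (0.6195) had alternatives from 0.2917 to 1.442. The reported counts of 13 higher and 16 lower pairs were 7 and 10 at Leiden resolution 0.5, where 13 clusters had a match that held 10 and 11 of the reported calls, and 5 and 8 after thinning to 1000 UMIs, of which 5 and 3 were shared with them. Without a filter on low values they were 17 and 21. The other settings gave 11 to 15 higher and 12 to 18 lower, but not all of these were reported calls. Those shared were 7 and 11 as a mean over cells, and 11 and 10 without the highest doublet scores. With the members kept in the clustering they were 9 and 15, of 12 and 16 reported calls in the matched clusters. Over all cells the 3 members past 1.5-fold became 0 as a mean over cells and 1 after thinning. Leaving out the cell richest in the member was chosen after seeing the data (15 and 14). TMM scaling moved log2 ratios up by 0.17 in Fibroblast-like cluster 0 and by 0.15 in Fibroblast-like cluster 8, where Itgam and Itgb2 kept their calls as lower and Itga4 lost its call in cluster 0 (0.697). Leaving out a replicate was not possible with 1 library per group. No paired analysis was possible because each group has 1 library. Depth limits Icam2 and every share of cells.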
